A study of Homo sapiens with 28 samples.

Results

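MHC class I molecules display peptides from inside the cell at its surface. Reads were followed here for 9 genes of that display and of its peptide supply: the heavy chain genes HLA-B, HLA-C, HLA-E and HLA-F, the light chain gene B2M, the transporter genes TAP1 and TAP2, and the immunoproteasome genes PSMB8 and PSMB9. They were taken by gene symbol, and all 9 were found among the 56809 symbols of the tables and passed the filter on low counts, which kept 18624 symbols.

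The cells were U937, a human monocytic line derived from a histiocytic lymphoma, in which members of the NF-kB family of transcription factors had been knocked out. Clones of 6 genotypes were compared: CTR (3 clones, targeted with non-specific guide RNAs) and knockouts of p50 (2 clones, gene NFKB1), p52 (2 clones, NFKB2), p65 (3 clones, RELA), cREL (2 clones, REL) and RELB (2 clones). Each clone gave 1 library without treatment and 1 with bacterial lipopolysaccharide (LPS, 500 ng/ml), both labelled 6 h, so there were 28 libraries in 12 groups. The labels name 3 sample batches: batch A holds 1 clone of each knockout and no CTR clone, batch B holds CTR replicate 2 with 1 clone each of p50, p52, cREL and RELB, and batch C holds CTR replicates 1 and 3 with p65 replicates 2 and 3. Each replicate is a clone, so p-values rest on the spread between clones. That spread was estimated in 1 fit over all 12 groups and not only from the 2 or 3 clones compared. Unless a block is named, the fit had no term for the clone, so the 2 libraries of a clone counted as independent. In bulk RNA, a higher level in every cell and a larger share of cells at a high level cannot be told apart.

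A class I molecule is a polymorphic heavy chain bound to beta-2-microglobulin. Its peptides are cut in the cytosol by the proteasome, in which PSMB8 and PSMB9 replace constitutive subunits, and are carried into the endoplasmic reticulum by the TAP1-TAP2 transporter. HLA-B and HLA-C are classical heavy chains that present to CD8+ T cells, HLA-E presents leader peptides of other class I chains to natural killer cell receptors, and HLA-F is a nonclassical chain. Promoters of many of these genes carry an enhancer bound by NF-kB and an element bound by interferon regulatory factors, and interferon is a known inducer of the whole group.

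The libraries held 12643438 to 22122428 estimated counts each. The line's markers were present, with LYZ at 439 to 2340 TPM and CD33 at 93.3 to 170 TPM, while MPO was listed at 0 in 18 of 28 libraries. Of the markers of other cell types, NKG7 was high (99.7 to 519 TPM) in all libraries, whereas CD3D, MS4A1 and PF4 were listed at 0 in 28 of 28. RELA mRNA was at 3.67 to 8.36 CPM in p65 replicates 2 and 3 but at 53.6 and 58.3 CPM in the libraries labelled p65 replicate 1, within the CTR range of 46.7 to 61.2 CPM, so the p65 values that the text turns on are also given without that clone. NFKB1 was at 5.22 to 10.9 CPM in p50 against 11.9 to 33.2 in CTR, and REL at 26.0 and 23.9 CPM in cREL replicate 1, within the range of the p52 clones (18.5 to 40.7), but at 10.5 and 8.19 in replicate 2 (CTR 31.8 to 46.1). NFKB2 in untreated p52 clones (1.33 and 2.10 CPM) overlapped with CTR (1.5 to 5.47), and RELB with LPS was at 8.76 and 13.6 CPM in RELB clones against 19.8 to 24.8 in CTR. RELB with LPS was also below CTR in the p50, p52, p65 and cREL clones, at 1.96 to 12.1 CPM, so a low level did not set the RELB clones apart. The NFKB1 range of the p50 clones likewise held p65 libraries, at 9.28 CPM in replicate 1 with LPS and 9.3 in untreated replicate 3. The mRNA level does not show whether protein was lost. In p65 replicate 3 and RELB replicate 2, transcripts with an effective length under 700 bases were low relative to those over 2000 bases. The difference of their median log2 deviations was -1.87 untreated and -0.85 with LPS in p65 replicate 3, -1.15 and -0.43 in RELB replicate 2, and -0.43 to 0.65 in the other libraries. The median effective length was under 700 bases for B2M (672.6) and PSMB9 (571.2) and was 902.9 for PSMB8, and values in these clones are named where they matter.

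Of the genes measured, 8 lie in the MHC region of chromosome 6 and B2M lies on chromosome 15 (GRCh38, GENCODE release 29). HLA-F spans chr6:29722775-29738528 (+) and HLA-E chr6:30489467-30494205 (+). HLA-C spans chr6:31268749-31272130 (-), and the gene model of HLA-B, chr6:31269491-31357188 (-), covers 2640 bases of it. TAP2 (chr6:32821833-32838780, -), PSMB8 (chr6:32840717-32844703, -), PSMB9 (chr6:32844136-32859585, +) and TAP1 (chr6:32845209-32853978, -) form 1 cluster, and the PSMB9 model contains the whole of TAP1 on the opposite strand. B2M spans chr15:44711487-44718877 (+). The libraries do not record strand, and how reads shared by near-identical HLA genes were divided is not given in the sources used here. Values of HLA genes, and the split between PSMB9 and TAP1, therefore carry an uncertainty that the replicate spread does not show.

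RefSeq promoters (GRCh38.p14) matched 8 of the 9 genes; HLA-E had no entry. The 250 bases before the transcription start were searched on both strands for GGG, any 2 bases, T, any 2 bases and CC (called kB-type here). They were also searched for GAA or GAAA followed by any 2 bases and GAAA (the short and long forms called IRF-type here). The motifs were chosen after the sequences had been seen. The 4 promoters that hold both types are shown because NF-kB subunits were the genes removed and because TAP1 had the largest fitted LPS response. Capitals mark the matches, each sequence runs 5' to 3' on the gene's strand, and the windows are chr6:31357180-31357429 (-), chr6:31272093-31272342 (-), chr15:44711267-44711516 (+) and chr6:32853705-32853954 (-).
HLA-B: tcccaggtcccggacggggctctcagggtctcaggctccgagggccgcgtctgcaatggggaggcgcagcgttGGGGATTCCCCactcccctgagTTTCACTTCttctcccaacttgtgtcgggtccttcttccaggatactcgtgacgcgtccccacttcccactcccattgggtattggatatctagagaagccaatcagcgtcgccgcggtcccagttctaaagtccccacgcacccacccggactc
HLA-C: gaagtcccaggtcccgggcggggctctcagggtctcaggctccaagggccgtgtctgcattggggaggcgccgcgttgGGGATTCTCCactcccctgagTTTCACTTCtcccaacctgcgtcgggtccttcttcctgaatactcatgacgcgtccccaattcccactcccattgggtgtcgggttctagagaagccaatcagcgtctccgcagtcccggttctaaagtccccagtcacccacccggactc
B2M: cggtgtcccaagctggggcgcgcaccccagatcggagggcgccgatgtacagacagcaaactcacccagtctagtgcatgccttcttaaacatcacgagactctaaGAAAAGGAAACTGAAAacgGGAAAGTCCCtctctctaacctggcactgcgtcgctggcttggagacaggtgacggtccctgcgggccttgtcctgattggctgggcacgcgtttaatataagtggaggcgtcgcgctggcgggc
TAP1: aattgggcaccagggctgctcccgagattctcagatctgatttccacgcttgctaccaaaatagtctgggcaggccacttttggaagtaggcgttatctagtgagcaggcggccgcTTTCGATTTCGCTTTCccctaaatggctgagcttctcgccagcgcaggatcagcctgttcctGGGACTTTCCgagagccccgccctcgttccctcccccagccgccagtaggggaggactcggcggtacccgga
A kB-type match was found in HLA-B, HLA-C, TAP1 and B2M, 4 of the 10 windows that the 8 genes have, and in 19.7% of the 35116 promoter windows in the table. TAP1 and B2M hold the same 10 letters, GGGACTTTCC, from position -72 on the gene's strand in TAP1 and from -125 on the other strand in B2M, where -1 is the base before the start. An IRF-type match of either length was found in 6 of the 10 windows (HLA-B, HLA-C, HLA-F, TAP2, TAP1 and B2M) and in 9.08% of windows. In TAP1 the long form starts at -134 and -128, and in B2M at -144 and -138, so that in both genes the matches overlap each other in tandem. PSMB8 and PSMB9 held neither type in these windows. The PSMB9 window (chr6:32853942-32854191, +) overlaps the TAP1 window on the opposite strand. The TAP1 matches lie further upstream of PSMB9 than was searched for that gene. A match describes letters only and not binding.

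The members differed widely in abundance. B2M was the highest, with a mean of 3065 TPM over the 28 libraries (717.5 to 3950), rank 25 of all symbols. PSMB8 (282.3 TPM, 143.8 to 416.5), HLA-C (224.7, 136.2 to 295.8), HLA-B (195.5, 133.5 to 281.9) and HLA-E (118.1, 69.71 to 196.7) followed. TAP1 averaged 45.99 TPM (20.56 to 198.4), PSMB9 22.99 (5.541 to 72.24), TAP2 13.72 (6.706 to 33.19) and HLA-F 5.548 (0.4009 to 12.44). Within single libraries this order was not strict for every neighbour. B2M lay above PSMB8, and HLA-B above HLA-E, in 28 of 28 libraries, but PSMB8 lay above HLA-C in 24, HLA-C above HLA-B in 23 and PSMB9 above TAP2 in 21. The 2 subunits of the transporter and the 2 immunoproteasome subunits were thus present at unequal mRNA levels: TAP1 exceeded TAP2, and PSMB8 exceeded PSMB9, in group mean TPM in all 12 groups.

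**Figure D1:**
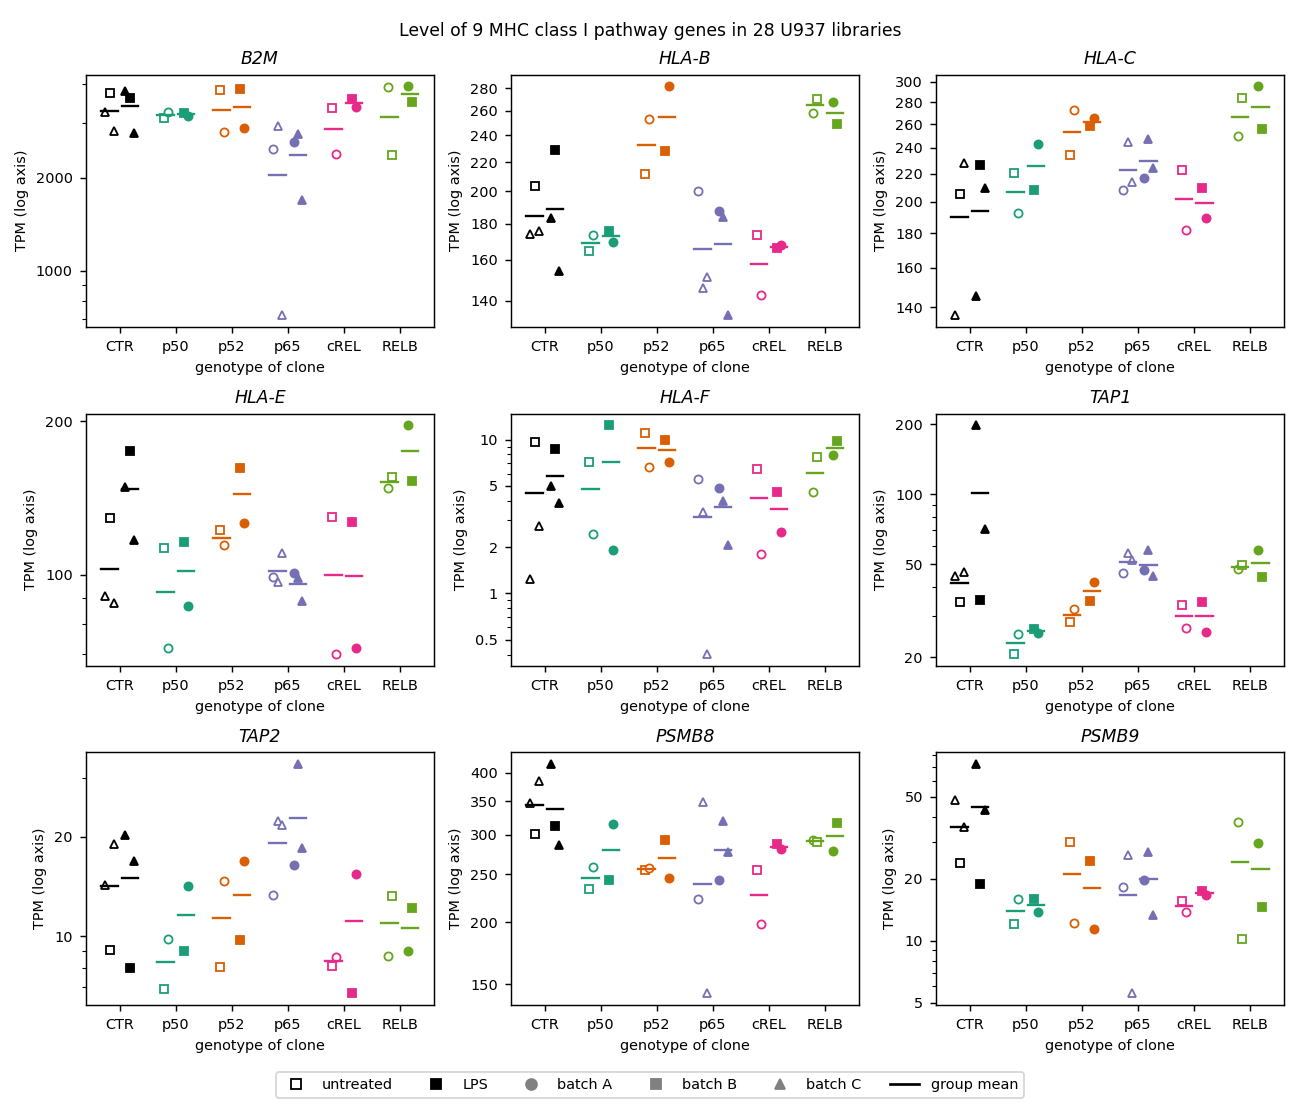
Level of each gene in TPM (log axis) by genotype; open symbols are untreated and filled symbols LPS libraries, the symbol's shape gives the batch and bars are group means. TAP1 with LPS reaches 198.4 TPM in 1 CTR clone, and B2M falls to 717.5 TPM in 1 untreated p65 library.

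Comparisons between libraries use CPM scaled by the trimmed mean of M values (TMM), because the effective length used for TPM varied between libraries for HLA-B (649.4 to 1206 bases), HLA-F (414.4 to 1289) and TAP2 (1622 to 4546). The spread between the lowest and highest library was 2.34-fold for HLA-C, 2.52-fold for HLA-B, 2.62-fold for TAP2, 2.82-fold for HLA-E and 3.97-fold for PSMB8. It was 7.02-fold for B2M, 9.67-fold for TAP1, 16.6-fold for PSMB9 and 56.4-fold for HLA-F, whose estimated counts ranged from 3.00 to 131.5. When the 12 groups were ordered by mean CPM, neighbouring groups overlapped in 11 of 11 pairs for HLA-C, HLA-E, HLA-F, B2M, PSMB8 and PSMB9, in 10 of 11 for TAP1 and TAP2, and in 8 of 11 for HLA-B. The LPS-treated RELB group was the highest for HLA-B, HLA-C, HLA-E and HLA-F. The untreated p65 group was the lowest for HLA-B, HLA-F, B2M and PSMB8.

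With edgeR's quasi-likelihood test and Benjamini-Hochberg adjustment over all 18624 genes, a gene was called at an adjusted p under 0.05, and none of the 9 was called in any of 21 comparisons. For LPS against untreated, 0 of 9 were called in CTR, where 0.408% of all genes tested were called, and 0 of 9 in p50 (0.0161% of genes), p52 (0.0215%), p65 (0.0268%), cREL (0.0107%) and RELB (0.129%). For untreated knockouts against untreated CTR, 0 of 9 were called in p50 (0% of genes), p52 (0%), cREL (0%), RELB (0.0107%) and p65 (0.0537%). For LPS-treated knockouts against LPS-treated CTR, 0 of 9 were called in p50 (0.129%), p52 (0.0698%), p65 (0.993%), cREL (0.199%) and RELB (0.0483%). With such small shares of genes called, a count of 0 among 9 is near the background in every comparison. DESeq2 and limma voom with clone as a random effect called 0 of 9 as well. The edgeR tests above did not pair the 2 libraries of a clone. With the clone as a block, edgeR called HLA-E for LPS in CTR (adjusted p = 0.00366), where that fit called 1.27% of genes.

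At an unadjusted p under 0.05 there were 2 of 9 for LPS in CTR (HLA-E and TAP1; 5.12% of genes). Against untreated CTR there were 2 in p65 (B2M and PSMB8; 12.9%), 1 in p52 (HLA-B; 7.6%) and 1 in RELB (HLA-B; 11%). Against LPS-treated CTR there were 3 in p65 (HLA-E, TAP1 and PSMB9; 12.4%), 2 in p50 (HLA-E and TAP1; 9.9%), 2 in cREL (HLA-E and TAP1; 9.14%), 1 in p52 (TAP1; 9.87%) and 1 in RELB (HLA-B; 9.8%). The 5 comparisons with LPS-treated CTR share those CTR libraries.

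In CTR clones the fitted log2 fold with LPS was above 0 for 9 of 9 genes, with a median of 0.255, against a median of 0.000 and 50.1% above 0 over all genes tested. That sign was not stable for each of them: it changed in 18 of 23 alternative fits for PSMB8, in 4 for TAP2 and in 1 for B2M. In the knockouts the count above 0 was 9 of 9 in RELB (median 0.196; 50.6% of all genes above 0), 9 in cREL (0.080; 49.7%), 8 in p50 (0.122; 47.9%), 7 in p65 (0.201; 52.5%) and 5 in p52 (0.020; 52.2%). Signs changed between fits in each knockout as well, most often for TAP1 in cREL (7 of 22 alternative fits) and PSMB9 in RELB (6 of 22). Of the 9 genes, 3 had a higher CPM with LPS in each of the 3 CTR clones: HLA-B, HLA-C and HLA-E (16.2% of all genes tested did so). In TPM this held in 3 of 3 clones for HLA-E and in 2 of 3 for HLA-B and HLA-C. The count was 3 in p50 clones (HLA-F, TAP1 and PSMB8; 21.8% of genes), 3 in p52 clones (HLA-B, HLA-E and TAP1; 25.9%), 2 in p65 clones (HLA-B and TAP1; 12.1%), 3 in cREL clones (B2M, PSMB8 and PSMB9; 24.5%) and 5 in RELB clones (all 4 heavy chains and B2M; 25.8%). In p52 clones, B2M and PSMB9 were lower with LPS in both (24.7% of genes). No gene went the same way in every clone of all 6 genotypes.

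**Figure D2:**
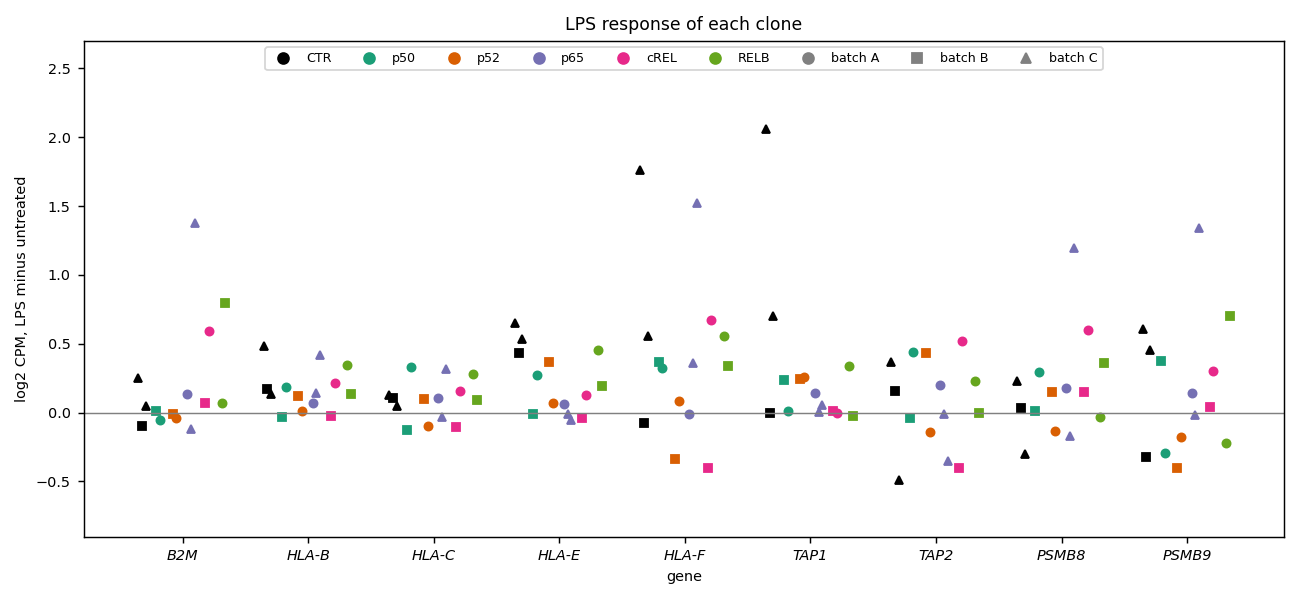
LPS response of each gene as log2 CPM with LPS minus untreated, 1 point per clone, grouped by genotype. The CTR points of TAP1 span -0.01 to 2.06 while those of HLA-E lie between 0.43 and 0.65.

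HLA-E, the ligand of natural killer cell receptors, had a fitted LPS response of 0.55 on the log2 scale in CTR, with similar values in the 3 clones. Its level went from 175.7 to 276.2 CPM in CTR replicate 1, from 206.3 to 278.6 in replicate 2 and from 152.0 to 220.8 in replicate 3. All 3 LPS libraries lay above all 3 untreated ones, in 2 batches, and TPM was higher with LPS in 3 of 3 clones. The SE of the log2 fold of 0.55 was 0.20 (edgeR adjusted p = 0.658). With the clone as a block, which compares each clone with itself, HLA-E rose by 0.54 on the log2 scale (SE 0.09, adjusted p = 0.00366 by edgeR); 1.27% of all genes were called in CTR by that fit and HLA-E was the only one of the 9. In p65 clones HLA-E was at 152.9, 163.8 and 151.1 CPM untreated and at 159.3, 162.5 and 145.3 CPM with LPS, with responses between -0.06 and 0.06 on the log2 scale. The RELB clones went from 244.8 to 335.9 and from 202.4 to 230.9 CPM, the p52 clones from 208.1 to 269.1 and from 194.0 to 203.2 CPM.

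With LPS, HLA-E in every p50, p65 and cREL library lay below all 3 CTR libraries in CPM. It was at 201.9 and 164.7 CPM in p50 (log2 fold against CTR -0.54, SE 0.25, edgeR adjusted p = 0.483) and at 220.1 and 130.5 CPM in cREL (-0.63, SE 0.25, adjusted p = 0.426). For cREL the smallest gap was 220.1 against 220.8 CPM in CTR replicate 3, less than the spread within either group. In TPM cREL replicate 1 (127.1) lay above CTR replicate 3 (117.1), so that cREL overlapped with CTR. Without cREL replicate 1 the log2 fold of cREL was -0.97, which rests on 1 clone, in batch A, where there is no CTR clone. That clone was already low untreated and rose by 0.13 on the log2 scale with LPS. Untreated, HLA-E was at 225.9 and 119.3 CPM in cREL and 203.4 and 136.6 in p50, against 152.0 to 206.3 in CTR. In p65 the log2 fold was -0.64 (SE 0.21, edgeR adjusted p = 0.160), and -0.66 (adjusted p = 0.347) without p65 replicate 1. Within batch C it was 153.9 CPM in 2 p65 clones against 248.5 in 2 CTR clones. Within batch B, CTR replicate 2 with LPS was at 278.6 CPM against 201.9 in p50, 269.1 in p52, 220.1 in cREL and 230.9 in RELB. Untreated, the p65 and CTR clones overlapped (157.5 against 163.9 CPM in batch C). The difference between the LPS responses of p65 and CTR was -0.55 on the log2 scale (SE 0.29, edgeR adjusted p = 1.00, unadjusted p = 0.070), and -0.60 (unadjusted p = 0.104) without p65 replicate 1. With the clone as a block it was -0.54 (SE 0.13, edgeR adjusted p = 0.188).

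HLA-B, a classical heavy chain, had its highest levels in the p52 and RELB clones. Untreated it was at 92.76, 125.7 and 124.4 CPM in CTR, at 171.1 and 183.0 CPM in p52 and at 165.2 and 157.3 CPM in RELB. With LPS it was at 129.6, 141.6 and 136.9 CPM in CTR, 186.1 and 184.1 CPM in p52 and 209.9 and 172.4 CPM in RELB. Every p52 and RELB library, with or without LPS, lay above every CTR library. The log2 fold against untreated CTR was 0.52 in p52 (SE 0.18, edgeR adjusted p = 0.509) and 0.39 in RELB (SE 0.18, adjusted p = 0.439), and with LPS 0.33 (adjusted p = 0.590) and 0.38 (adjusted p = 0.509). Within batch B the untreated clones were at 171.1 CPM in p52 and 157.3 in RELB against 125.7 in CTR replicate 2. In TPM the LPS-treated p52 and CTR libraries overlapped, at 227.7 and 281.9 against 154.4 to 228.7. Untreated libraries of p50 (115.0 and 119.3 CPM), p65 (83.38 to 119.8) and cREL (108.1 and 144.1) overlapped with CTR. With LPS all 3 p65 libraries (111.4 to 126.0 CPM) lay below all CTR libraries in CPM (129.6 to 141.6). The fitted difference between them was -0.17 on the log2 scale, and edgeR gave it an adjusted p of 0.685. In TPM these p65 and CTR libraries overlapped, at 133.5 to 187.3 against 154.4 to 228.7.

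HLA-C, the other classical heavy chain, was lowest in CTR replicate 1, at 120.3 CPM untreated and 131.8 with LPS, against 183.8 to 220.6 in the other CTR libraries. In p52 it was at 221.6 and 254.7 CPM untreated and 237.3 and 237.6 with LPS, above every CTR library of the same treatment. The log2 fold of p52 against CTR was 0.46 untreated (SE 0.25, edgeR adjusted p = 0.718) and 0.37 with LPS (adjusted p = 0.687). RELB clones were at 231.0 and 203.1 CPM untreated and overlapped with CTR. With LPS, HLA-C differed from untreated by 0.09 on the log2 scale in CTR (SE 0.21, edgeR adjusted p = 1.00), and the largest clone response was 0.33.

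HLA-F, a nonclassical chain, was near the limit of what these depths measure. Untreated CTR clones were at 1.095, 5.753 and 2.152 CPM, and p65 clones at 3.214, 2.200 and 0.1341. With LPS the CTR clones were at 3.991, 5.447 and 3.216 CPM, above the 3 p65 clones (3.189, 2.852 and 0.6059) and the 2 cREL clones (2.971 and 1.691). The smallest gap, 3.216 against 3.189 CPM, is less than the spread within either group. In TPM both knockouts overlapped with CTR, at up to 4.851 in p65 and 4.577 in cREL against 3.875 in the lowest CTR library. The log2 fold against LPS-treated CTR was -0.67 in p65 (SE 0.66, edgeR adjusted p = 0.733; -0.86 without p65 replicate 1) and -1.59 in cREL (SE 0.84, adjusted p = 0.601). Its SE was 0.66 or more in all 21 comparisons.

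B2M, the shared light chain, was at 1696, 1761 and 1400 CPM in untreated CTR and 2015, 1646 and 1448 with LPS. Its LPS response in CTR was 0.08 on the log2 scale (SE 0.38, edgeR adjusted p = 1.00). In untreated p65 clones it was at 1113, 1360 and 286.9 CPM, below all CTR libraries, at a log2 fold against CTR of -0.85 (SE 0.39, adjusted p = 0.370 by edgeR). With LPS p65 was at 1219, 1255 and 744.8 CPM, also below all CTR libraries, at -0.70 (SE 0.39, adjusted p = 0.485). In TPM the untreated libraries overlapped, with p65 replicate 2 at 2943 and CTR replicate 3 at 2826. With LPS the highest p65 library (2774 TPM) was only just below the lowest CTR library (2781 TPM). The lowest values came from p65 replicate 3, the clone with the lowest level of short transcripts. Without that clone the log2 fold was -0.39 untreated (adjusted p = 0.751) and -0.46 with LPS (adjusted p = 0.571), and without p65 replicate 1 it was -0.93 and -0.75. The other clone low in short transcripts, RELB replicate 2, had 893.7 CPM untreated against 1909 in RELB replicate 1. The part of transcript length in the B2M difference was not tested.

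PSMB9, an inducible catalytic subunit of the immunoproteasome, was lower in the knockouts than in CTR by fitted value in 10 of 10 comparisons, which share the 3 CTR clones and so are not independent. The sign changed in 2 of 21 alternative fits for untreated p52, in 3 for untreated RELB and in 1 for LPS-treated RELB, and in none for the other 7. Its level was at 21.9, 9.194 and 14.87 CPM in untreated CTR, at 5.103 and 7.620 in p50 and at 6.937 and 6.115 in cREL. Every untreated p50 and cREL library thus lay below all CTR libraries, while p52 (12.53 and 5.167 CPM), RELB (15.04 and 3.207) and p65 (7.012, 10.81 and 2.012) overlapped with CTR. The log2 fold against untreated CTR ranged from -1.25 in p65 (SE 0.61, edgeR adjusted p = 0.405) to -0.27 in p52 (SE 0.73, adjusted p = 0.976), and with LPS from -1.33 in p65 (SE 0.61, adjusted p = 0.377) to -0.71 in RELB (SE 0.76, adjusted p = 0.816). CTR clones themselves were spread: with LPS they were at 33.43, 7.315 and 20.45 CPM, and replicate 2, the only one in batch B, overlapped with the knockouts. Within batch B the untreated level was 9.194 CPM in CTR against 12.53 in p52 and 3.207 to 6.937 in the other knockouts, and the LPS-treated level was 7.315 CPM in CTR against 6.664 in p50, 9.460 in p52, 7.143 in cREL and 5.276 in RELB. Within batch C it was 26.94 in CTR against 7.962 in p65. Without p65 replicate 3 the log2 fold of p65 was -0.69 untreated (adjusted p = 0.797) and -0.91 with LPS (adjusted p = 0.607), and without p65 replicate 1 it was -1.65 and -1.62.

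PSMB8, the other inducible subunit, was at 257.7, 184.9 and 257.7 CPM in untreated CTR and 301.5, 189.4 and 209.6 with LPS, a difference of 0.00 on the log2 scale (SE 0.25, adjusted p = 1.00 by edgeR). Untreated p65 clones were at 132.4, 226.5 and 75.96 CPM (log2 fold -0.70, SE 0.26, edgeR adjusted p = 0.281). The log2 fold was -0.34 (adjusted p = 0.699) without p65 replicate 3 and -0.74 (adjusted p = 0.368) without p65 replicate 1. Without p65 replicate 2, the highest of the 3, PSMB8 was called, at -1.18 (SE 0.26, edgeR adjusted p = 0.0240). Untreated p52 (166.5 and 166.5 CPM) and cREL (170.2 and 132.0 CPM) lay below all CTR libraries, with adjusted p of 0.931 and 0.967 by edgeR. With LPS, PSMB8 and PSMB9 in p65 replicate 3 were 1.20 and 1.34 higher on the log2 scale than without, and B2M 1.38 higher, while the short-transcript difference of the same clone went from -1.87 to -0.85. Whether this is a response to LPS or a feature of the untreated library was not tested.

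**Figure D3:**
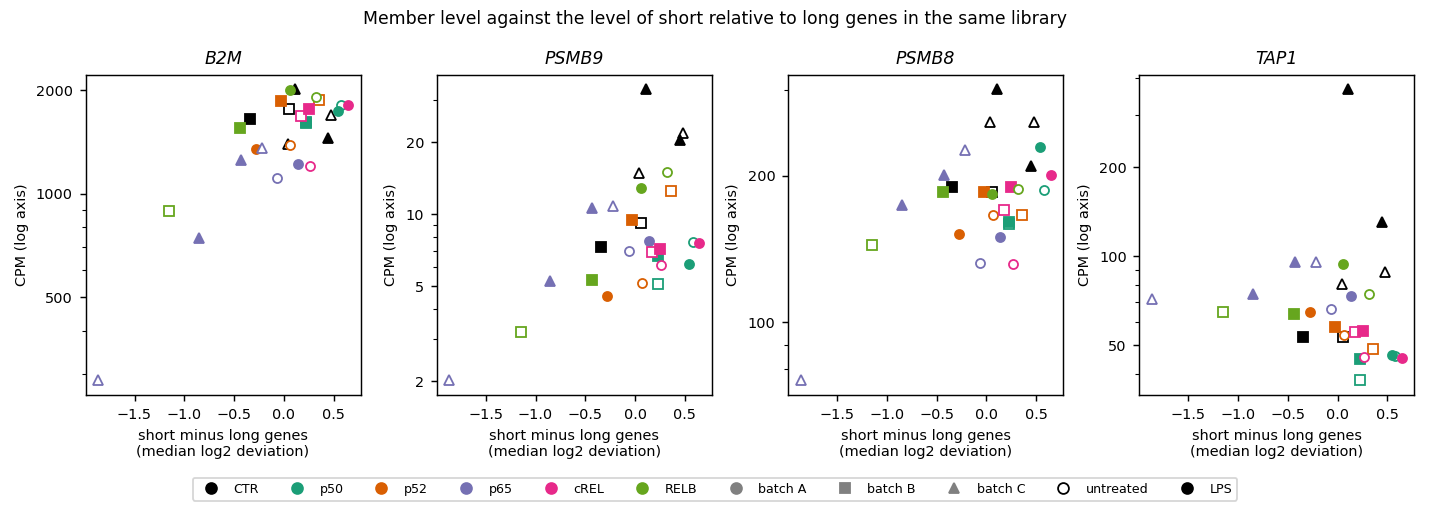
CPM of B2M, PSMB9, PSMB8 and TAP1 (log axes) against the level of short relative to long transcripts in the same library, 1 point per library. The untreated library of p65 replicate 3 lies at -1.87 and holds the lowest B2M (286.9 CPM), PSMB8 (75.96) and PSMB9 (2.012) of the 28; its TAP1 (71.45 CPM) lies within the other libraries.

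TAP1, the first subunit of the peptide transporter, had the largest fitted LPS response of the 9 genes in CTR clones and the least even one there. It went from 88.38 to 367.8 CPM in CTR replicate 1 and from 80.62 to 131.0 in replicate 3, but was at 53.53 and 53.33 CPM in replicate 2. The edgeR log2 fold in CTR was 1.15 (SE 0.34, adjusted p = 0.313). Without CTR replicate 1 it was 0.38 (adjusted p = 1.00), and without CTR replicate 2 it was 1.55 (SE 0.33, adjusted p = 0.0491), where TAP1 was called. In the 11 knockout clones the response lay between -0.03 and 0.34 on the log2 scale.

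Among the 3 CTR clones, the 2 in which TAP1 was clearly higher with LPS also had the larger LPS responses of interferon-stimulated genes. The mean log2 CPM of 10 such genes (ISG15, IFIT1, IFIT2, IFIT3, MX1, MX2, OAS1, OAS2, RSAD2 and IFI44L) went from 4.81 to 7.26 in CTR replicate 1 and from 2.21 to 3.42 in replicate 3, but from 2.08 to 2.14 in replicate 2. In knockout clones it moved by -0.17 to 0.67, and not always with TAP1: in p65 replicate 1 it moved by -0.13 while TAP1 moved by 0.15. Without treatment CTR replicate 1 already stood above all other untreated libraries, which were at 1.49 to 2.73. CTR replicate 1 also had the highest PSMB9, at 21.9 CPM untreated and 33.43 with LPS. The part of interferon signalling in the TAP1 difference was not tested.

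**Figure D4:**
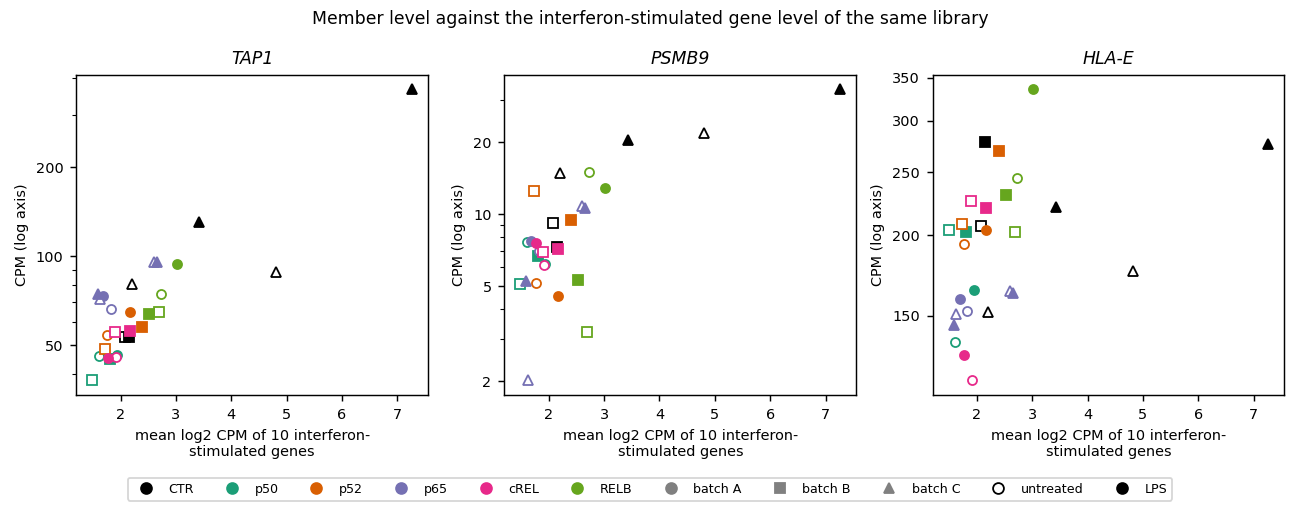
CPM of TAP1, PSMB9 and HLA-E (log axes) against the mean log2 CPM of 10 interferon-stimulated genes in the same library, 1 point per library. The 2 libraries of CTR replicate 1 lie apart at 4.81 and 7.26, and TAP1 reaches 367.8 CPM at the higher of them.

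With LPS, TAP1 was lower than CTR by fitted value in all 5 knockouts, although the sign changed in 1 of 21 alternative fits for RELB. The log2 fold was -1.34 in p50 (SE 0.44, edgeR adjusted p = 0.289), -0.91 in p52 (adjusted p = 0.501), -1.06 in p65 (SE 0.34, adjusted p = 0.165), -1.17 in cREL (adjusted p = 0.384) and -0.57 in RELB (adjusted p = 0.709). The LPS-treated knockout libraries held 44.8 to 95.82 CPM, so that CTR replicate 2 (53.33) lay within their range and CTR replicates 1 and 3 above it. Within batch B the knockouts were at 44.8 (p50), 57.77 (p52), 55.82 (cREL) and 63.82 CPM (RELB) against 53.33 in CTR replicate 2. Within batch C they were at 85.05 CPM in p65 against 249.4 in CTR. Without CTR replicate 1 the log2 fold was -0.24 in p65 (adjusted p = 0.738), -0.67 in p50 (adjusted p = 0.384) and 0.11 in RELB (adjusted p = 0.930). Without CTR replicate 2 TAP1 was called lower in p65, at -1.53 (SE 0.31, edgeR adjusted p = 0.0235), and without p65 replicate 1 it was at -1.32 (adjusted p = 0.168). The size of the TAP1 difference thus rested on which CTR clones were included.

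Untreated, TAP1 was at 38.04 and 45.90 CPM in p50, below all CTR libraries, at -0.31 on the log2 scale (SE 0.41, adjusted p = 0.954 by edgeR). In untreated p65 it was at 66.26, 95.45 and 71.45 CPM, overlapping with CTR (log2 fold 0.01, SE 0.34, edgeR adjusted p = 0.994). The log2 fold was -0.27 (adjusted p = 0.848) without p65 replicate 1. The difference between knockout and CTR in the LPS response of TAP1 was -0.90 to -1.15 on the log2 scale in the 5 knockouts, with edgeR adjusted p = 1.00 in each. At an unadjusted p under 0.05, TAP1 was the only one of the 9 in p65 (2.79% of genes) and in cREL (3.01%). With the clone as a block TAP1 was no longer there (unadjusted p = 0.0539 in p65 and 0.0625 in cREL by edgeR) and HLA-E was instead. HLA-E differed by -0.54 on the log2 scale in p65 (edgeR unadjusted p = 0.000555, adjusted p = 0.188; 5.47% of genes had an unadjusted p under 0.05). In cREL it differed by -0.50 (unadjusted p = 0.00297; 5.17%), in p50 by -0.41 (0.0102; 5.53%) and in p52 by -0.32 (0.0366; 4.92%), with edgeR adjusted p of 0.508 or more. For the differences in LPS response, 0 of 9 were called in p50, p52, cREL and RELB (0% of genes each) and in p65 (0.0161%).

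TAP2, the second transporter subunit, did not follow TAP1 in CTR clones. It went from 35.04 to 45.28, from 19.57 to 21.79 and from 40.37 to 28.72 CPM with LPS, a fitted difference of 0.03 on the log2 scale (SE 0.22, adjusted p = 1.00 by edgeR). By group mean CPM the RELB clones were the lowest, at 17.31 and 20.47 CPM untreated and 20.29 and 20.42 with LPS. Single libraries of p52 (18.13), cREL (18.40) and CTR (19.57) lay within that range. With LPS the RELB clones lay below all CTR libraries in CPM (log2 fold -0.26, SE 0.27, edgeR adjusted p = 0.808). In TPM they overlapped (9.007 and 12.19 against 7.989 to 20.21 in CTR), and untreated p50 and cREL had the lowest means (8.358 and 8.394). The untreated p65 group was the highest by mean CPM, at 28.69, 37.68 and 44.89 CPM, and overlapped with CTR.

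Counted by separation of the libraries, 2 of 9 genes in untreated p50 lay below every CTR library (TAP1 and PSMB9; 9.4% of all genes tested did so), 1 in p52 (PSMB8; 9.64%), 1 in p65 (B2M; 5.17%) and 2 in cREL (PSMB8 and PSMB9; 8.87%). Above every CTR library were 2 in p52 (HLA-B and HLA-C; 12.8%) and 1 in RELB (HLA-B; 15.5%). With LPS, 3 lay below in p50 (HLA-E, TAP1 and PSMB9; 11.9%), 1 in p52 (PSMB8; 12.2%), 4 in p65 (HLA-B, HLA-E, HLA-F and B2M; 6.93%), 2 in cREL (HLA-E and HLA-F; 11.6%) and 2 in RELB (TAP2 and PSMB8; 12%). Above with LPS were 2 in p52 (HLA-B and HLA-C; 12.7%) and 1 in RELB (HLA-B; 12.4%). These members and shares were counted in CPM, and several separations did not hold in TPM. In TPM, B2M in untreated p65 overlapped with CTR. With LPS, so did HLA-B and HLA-F in p65, HLA-E and HLA-F in cREL, TAP2 and PSMB8 in RELB, and HLA-B and PSMB8 in p52. The other separations listed also held in TPM. Omitting p65 replicate 1 cannot take a gene off these p65 lists, so it does not test them against that clone. No further member joined. B2M lay below CTR untreated (11.3% of genes), and HLA-B, HLA-E, HLA-F and B2M did with LPS (14%). Over all 11 knockout clones, 0 of 9 lay below all CTR libraries (0.37% of genes untreated and 0.639% with LPS) and 0 of 9 lay above them (0.521% and 0.51%). The median fitted log2 fold of the 9 genes against CTR ranged from -0.12 in p65 to 0.23 in RELB untreated and from -0.64 in p65 to -0.10 in RELB with LPS. Over all genes tested the medians lay between -0.05 and 0.02.

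**Figure D5:**
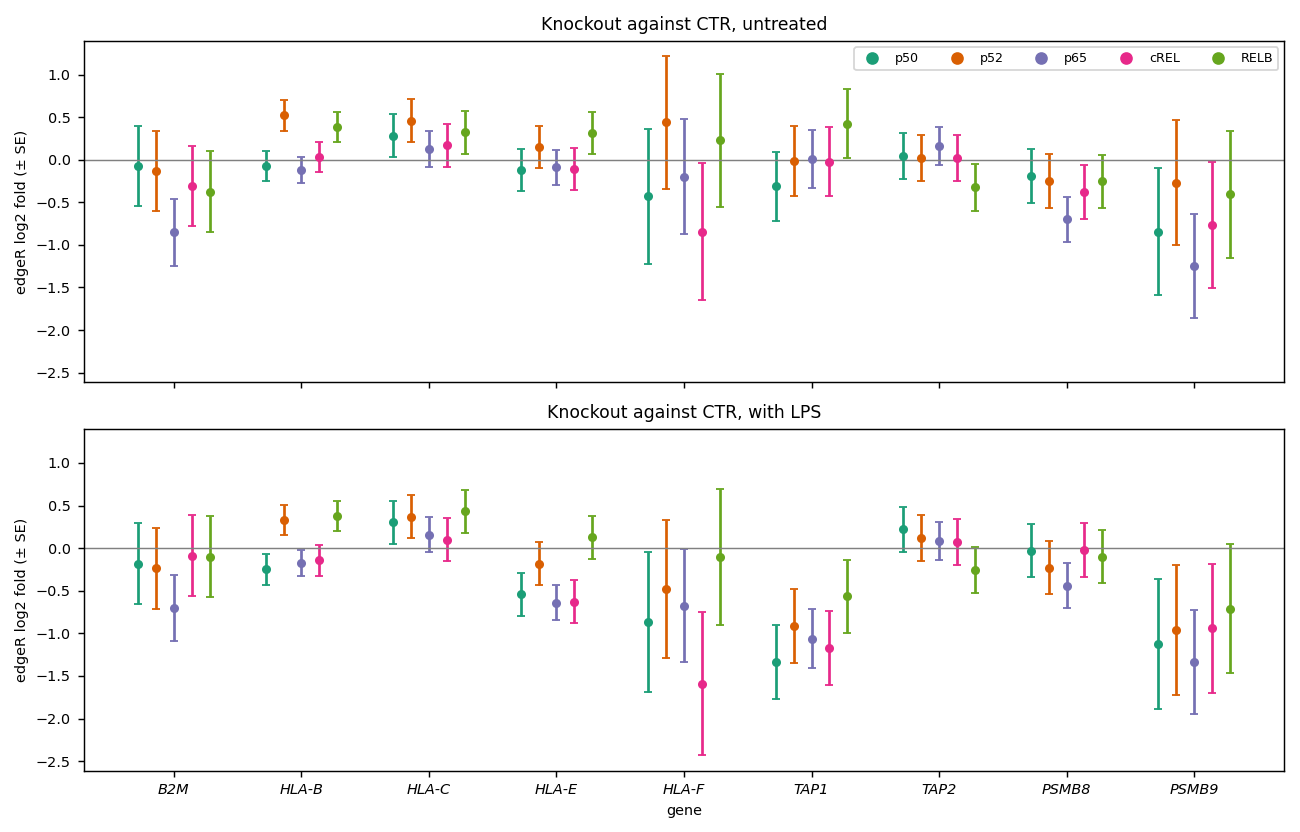
Fitted log2 fold of each gene, knockout against CTR, with its SE, untreated and with LPS, for the 5 knockouts. PSMB9 lies below 0 in 10 of 10 comparisons, TAP1 in 5 of 5 with LPS, and HLA-B lies above 0 in p52 and RELB; no value passed the adjusted threshold.

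The other genes of the pathway were read from lists of known pathway genes. Of 6 genes of the peptide loading complex and its chaperones, 0 were called in any of the 21 comparisons, and the nearest with LPS in CTR was TAPBP, the tapasin gene that bridges TAP and the heavy chain (log2 fold 0.47, SE 0.14, edgeR adjusted p = 0.283). Of 7 peptide trimming enzymes, 5 further immunoproteasome and activator genes, 14 constitutive proteasome subunits, 14 regulators of class I transcription, 7 other class I-like genes and 7 interferon receptors and kinases, 0 were called as well. NLRC5, the class I transactivator, differed by 0.18 with LPS in CTR and by -0.58 between LPS-treated p65 and CTR (edgeR adjusted p = 1.00 and 0.328). Without p65 replicate 1 the latter was -0.64. PSMB10, the remaining inducible catalytic subunit, differed by 0.03 and -0.46, and the activator genes PSME1 and PSME2 by 0.12 and 0.07 with LPS in CTR and by -0.59 and -0.70 in LPS-treated p65, with edgeR adjusted p of 0.472 or more. In untreated p65 the 14 constitutive proteasome genes were all below CTR by fitted value, with a median log2 fold of -0.98, close to the -0.79 of the 5 further immunoproteasome and activator genes. Without p65 replicate 3 these medians were -0.57 and -0.39, and without p65 replicate 1 they were -0.94 and -0.95. All 14 constitutive genes were also below CTR in untreated p52 (median -0.27), cREL (-0.23) and RELB (-0.58), and 7 of 14 were in p50. Of all genes tested, 48.7 to 51.8% were above 0 in untreated p52, p65, cREL and RELB. The median effective length was under 700 bases for 5 of the 14 and for 1 of the 5, and the part of length was not tested. Of the 10 interferon-stimulated genes, IFIT2 (log2 fold -4.99, edgeR adjusted p = 0.0329) and IFIT3 (-4.63, adjusted p = 0.0439) were called lower in LPS-treated p65 against CTR, the comparison that contains the 3 CTR clones described above. Without p65 replicate 1 neither was called (IFIT2 -5.22, edgeR adjusted p = 0.0682; IFIT3 -5.17, adjusted p = 0.0551), and without p65 replicate 3 0 of the 10 were called.

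The genes with the most similar pattern over the 28 libraries, by Pearson's r of log2 CPM among 9981 or 9982 genes with a mean of at least 5 CPM, differed from member to member. For TAP1 they were PML (r = 0.893), TRIM22 (0.875) and DDX58 (0.864), and for HLA-E CCR1 (0.856), FOS (0.841) and SLC31A2 (0.822). B2M was nearest to UBB (0.953), AC093484.3 (0.950) and SNAPIN (0.948), PSMB8 to MRPL16 (0.900), CFL1 (0.899) and SYF2 (0.891), and PSMB9 to PYROXD2 (0.848), ALOX5AP (0.827) and PSME2 (0.824). HLA-B was nearest to TMEM138 (0.803), PSAP (0.770) and CDKN2B (0.764), HLA-C to DUSP22 (0.861), TM2D3 (0.843) and FAM120B (0.805), HLA-F to PHLDA2 (0.780), NLRP1 (0.779) and CD58 (0.778), and TAP2 to SARS2 (0.898), IFRD2 (0.895) and POLD1 (0.894). No member was among the 3 nearest genes of another. Between members, r was 0.790 for PSMB8 with PSMB9, 0.721 for B2M with PSMB8, 0.707 for HLA-B with HLA-F and 0.670 for HLA-B with HLA-C. It was 0.465 for TAP1 with TAP2, -0.004 for B2M with TAP1 and -0.599 for HLA-F with TAP2. These values share libraries, clones, batches and the short-transcript level, and are given as a description.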

How the data were processed

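PolyA RNA of 28 U937 libraries was amplified from oligo(dT)-primed cDNA and read in pairs from Nextera XT libraries, per the labels' protocols. The submitters' processing notes list FastQC 0.11.7, Salmon 0.11.3 and GRCh38, with no role or order. For these tools, the sources used here give neither options nor an annotation. The authors deposited estimated counts per gene symbol (41.0 to 47.5% of nonzero values whole), TPM scaled by the authors within each library, and effective length in bases, which they deposited with no other unit. Count over TPM times length was constant within each library. Positions are from GENCODE release 29, promoters from RefSeq.

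Counts were rounded and tested with edgeR 4.0.16 (R 4.3.3): filterByExpr (minimum count 10, minimum total 15), TMM, and 1 robust quasi-likelihood fit across all genes of 12 groups plus batch, leaving 14 residual degrees of freedom (biological coefficient of variation 31.7%). The 21 comparisons were each adjusted over 18624 genes. SE is the log2 fold divided by the root of F. CPM is TMM-scaled, and log2 CPM has a prior count of 2. All 9 members are named in every comparison; of the pathway lists, called genes, NLRC5, TAPBP, PSMB10, PSME1 and PSME2 are named; likeness names 3 genes per member. The members and lists were chosen with earlier results of these data known.

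Untreated and LPS libraries with the same genotype and replicate number were taken as 1 clone. The deviations of the 2 libraries of a clone from their group means correlated at 0.203 to 0.441, and 14 of 14 clones correlated best with their own partner, which for genotypes of 2 clones is a check of sign only. The 20 pairs of replicates had r of 0.947 to 0.969, with no identical pair. Alternatives were DESeq2 1.42.0, limma 3.58.1 voom, a replicate block, RLE size factors, an offset for effective length, all genes unfiltered, batch left out of the model, only batch C, each clone omitted, and, chosen after seeing the data, both clones low in short transcripts omitted. The edgeR script was tested on simulated data. ERCC spike-ins were not analysed here. The values of 1 gene of the pathway lists are not reported here.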

Additional observations from a re-analysis of the deposited data

How the results depend on the processing

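Over 23 alternative settings, 13 of 4113 fitted values of the 9 genes were called and none of these had changed sign; 262 uncalled values changed sign. The fit given in the text called 0 of 9 in each comparison, and DESeq2, limma voom, RLE size factors, the length offset, no batch term, batch C alone and both clones low in short transcripts omitted also called 0. The replicate block (clone), with 8 residual degrees of freedom and a coefficient of variation of 21%, called 1 gene for LPS against untreated, HLA-E in CTR (log2 fold 0.54, edgeR adjusted p = 0.00366), and changed no other call.

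Without the filter on low counts, edgeR tested 38219 genes and called 1 gene for LPS in CTR (TAP1, 1.15), 3 for untreated p65 (B2M -0.83, PSMB8 -0.67 and PSMB9 -1.23) and 5 with LPS: TAP1 in p50 (-1.35) and cREL (-1.17), and 3 in p65 (TAP1 -1.05, B2M -0.69 and PSMB9 -1.32). The cause was not tested, and that fit called 252 genes for LPS in CTR against 76 with the filter.

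With each clone omitted in turn, the number called ranged from 0 to 1 for LPS in CTR (TAP1 without CTR replicate 2), from 0 to 1 for untreated p65 (PSMB8 without p65 replicate 2) and from 0 to 1 for LPS-treated p65 (TAP1 without CTR replicate 2), and was 0 elsewhere. Of 90 ratios of group means, 5 moved by more than the spread between clones when CPM replaced TPM, among them HLA-B and TAP1. Depth limits HLA-F (estimated counts from 3.00) and PSMB9 (from 44.6).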

Other observations

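Among the other pathway genes, a few came near the threshold. In CTR with LPS, IFNGR2, a chain of the interferon gamma receptor, had a log2 fold of 1.29 (SE 0.29) and the lowest edgeR adjusted p of the pathway lists, 0.0575, and in LPS-treated p65 against CTR it was at -1.08 (edgeR adjusted p = 0.0838). IRF8, a myeloid regulatory factor, was higher by fitted value in untreated p65 (log2 fold 0.72, SE 0.15, edgeR adjusted p = 0.0844). Without p65 replicate 1 these p65 values were -1.16 for IFNGR2 (edgeR adjusted p = 0.178) and 0.65 for IRF8 (adjusted p = 0.158). These genes missed the threshold and were singled out after their values were seen.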
